A study of Mus musculus with 20 samples.

Results

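Benzo[a]pyrene (B[a]P), a combustion product that binds the aryl hydrocarbon receptor (AHR), was given for 8 hours to Hepa-1 cells that had a history of hexavalent chromium, Cr(VI). These recovered cells had 20 passages with Cr(VI), then 5 passages without it, and were at passage 25 by their label. The comparison was B[a]P against the solvent DMSO in 4 of the series' 20 RNA-seq libraries, 2 per treatment, chosen by their labelled growth history and paired by replicate number. Hepa-1 is a mouse hepatoma line. The other libraries came from control-grown cells, which had no Cr(VI), and from cells grown with Cr(VI) to the end, each with DMSO or B[a]P, at passage 20 and passage 25. Every group had 2 libraries, and all cells came from 1 line. The labels give no culture, clone or day for a replicate number, so the spread between libraries may be technical. The p-values measure the spread that is left after the shared difference between replicate numbers is removed. It is pooled over the 12 libraries of passage 25.

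AHR is a ligand-activated transcription factor that waits in the cytoplasm with the chaperone HSP90. Once bound by a ligand it enters the nucleus, pairs with ARNT and binds DNA at elements with the core GCGTG. In liver cells its targets include the cytochrome P450 enzymes of the CYP1 family, which oxidise B[a]P itself. Some of the products are excreted after conjugation, and others, the diol epoxides, form adducts on DNA that block polymerases and can set off p53.

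B[a]P raised 91 genes and lowered 70 genes in the recovered cells, out of 13692 tested, which is 0.665% and 0.511% of them (1.18% together; edgeR's quasi-likelihood test with the replicate number as a block, Benjamini-Hochberg adjusted p under 0.05). The rises included 8 of 13 tested AHR targets, Cyp1a1 among them, and 56 of the 70 falls were of genes that span more than 100 kb, such as Sox5. Without the replicate block no gene passed, the lowest adjusted p was 0.106, and 288 genes had an unadjusted p under 0.05. Leaving out 1 recovered library in turn left 94 calls without DMSO replicate 1, 42 without DMSO replicate 2, 58 without B[a]P replicate 1 and 37 without B[a]P replicate 2, of which 35 were rises and 2 falls. All 161 genes changed in the same direction in both pairs of libraries. Among the 91 risen genes, 78 had both B[a]P libraries above both DMSO libraries, an order held by 7.3% of all genes tested. Among the 70 fallen genes, 65 had both B[a]P libraries below both DMSO libraries, again against 7.3% of all genes. The genes were called from these same libraries, so the shared direction and the order follow largely from the choice and are not separate support.

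The replicates of the recovered cells differed more than the treatments did. The correlation of log CPM (the count scaled to a common library size by edgeR's TMM method) was 0.978 within each treatment pair, but 0.899 between the DMSO replicates and 0.885 between the B[a]P replicates. Between the DMSO replicates 52.1% of the genes differed by more than 2-fold. Both replicate 2 libraries had fewer genes detected, 15054 with DMSO and 15215 with B[a]P, against 16049 and 16262 in replicate 1. The 100 most abundant genes held 31.5% and 31.1% of the counts in replicate 2 and 20.6% and 18.4% in replicate 1. Total counts of the 4 libraries were between 27012268 and 33070524. In the other groups of passage 25, replicate 1 of control-grown B[a]P and replicate 1 of Cr(VI)-grown DMSO stood apart. They correlated at 0.928 to 0.965 with the replicate 2 libraries, while the other 4 replicate 1 libraries did so at 0.851 to 0.923. Without these libraries in the fit 236 genes passed in the recovered cells, among them all 161 above.

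Liver markers were checked against the label. Albumin (Alb) was read at 1528 CPM with DMSO and 920 CPM with B[a]P in replicate 1, and at 4502 and 5098 CPM in replicate 2, so the replicates and not the treatments were separated. Apoa1 and Cebpa, markers of the mature hepatocyte, had no count in any of the 4 libraries, and Hnf4a had at most 5 counts. The summed hepatocyte markers were at 2282 and 6616 CPM with DMSO and at 1576 and 8009 CPM with B[a]P. None of the tested markers passed, while 1.18% of all genes did. The tested markers were 15 of hepatocytes, 6 of stellate cells, 4 of macrophages, 3 of endothelium and 5 of bile ducts. Their part in the results below was not tested further. Stellate markers summed to between 1039 and 1451 CPM, and bile duct markers to between 575 and 1606 CPM, while Lum, Reln, Clec4f, Marco, Cdh5 and Cftr had no count in the 4 libraries. Macrophage markers summed to between 63.1 and 105.7 CPM and endothelial markers to between 7.41 and 8.29 CPM.

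Promoter sequences are shown for 5 risen genes whose upstream DNA holds a match to the core of the AHR element. Binding of AHR at these matches was not measured. The core GCGTG was searched on both strands (CACGC is its reverse complement) in the 250 bases upstream of each start site in RefSeq promoters of GRCm38.p6. It was found in 38 of the 70 risen genes with a promoter in that table (54.3%), in 26 of 53 fallen genes (49.1%) and in 5144 of 10709 genes tested (48%), so a match in this window was about as frequent in all genes as in the changed ones. Each stretch below has 61 bases and reads 5′ to 3′ on the strand of its gene, and the capitals mark the core. They lie at chr9:57697531-57697591 (Cyp1a1, plus strand), chr17:79715105-79715165 (Cyp1b1, minus strand), chr3:94932878-94932938 (Selenbp1, plus strand), chr3:94693372-94693432 (Selenbp2, plus strand) and chr13:112987665-112987725 (Ccno, plus strand). The core began 54 bases before the start site in Cyp1a1 and 76 bases before it in Cyp1b1. The Cyp1a1 stretch lies inside the annotated span of the gene (57687928 to 57703824), so the start site used is not its first annotated base. Selenbp1 had 2 overlapping copies of it, and Ccno 2 separate copies.
Cyp1a1: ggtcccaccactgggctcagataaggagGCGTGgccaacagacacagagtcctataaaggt
Cyp1b1: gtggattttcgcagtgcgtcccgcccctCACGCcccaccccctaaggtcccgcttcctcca
Selenbp1: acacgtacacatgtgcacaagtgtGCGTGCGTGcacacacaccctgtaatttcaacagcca
Selenbp2: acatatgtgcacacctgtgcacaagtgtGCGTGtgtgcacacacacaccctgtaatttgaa
Ccno: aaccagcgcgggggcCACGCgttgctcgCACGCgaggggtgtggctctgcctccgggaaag

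The CYP1 genes encode the P450 enzymes that oxidise B[a]P. Cyp1a1 (Entrez 13076, chromosome 9, 57687928 to 57703824, mm10) was at 29.0 and 22.5 CPM with DMSO and at 1204 and 1620 CPM with B[a]P. The treatments did not overlap, and the rise was 5.75 ± 0.46 on the log2 scale (n = 2 pairs, 54.0-fold, edgeR adjusted p = 1.38e-04). Here and below ± is the SE from the fit of 12 libraries. Cyp1a2, its neighbour on the chromosome, went from 6.30 and 5.43 CPM to 41.9 and 52.5 CPM, a log2 rise of 2.98 ± 0.29 (edgeR adjusted p = 4.43e-04). Cyp1b1 was at 3.58 and 29.6 CPM in pair 1 but at 0.724 and 5.99 CPM in pair 2. Its replicates lay further apart than those of the other CYP1 genes, and yet its pairs rose by 3.04 and 3.02, for a fitted log2 rise of 2.99 ± 0.43 (edgeR adjusted p = 0.00397), a call that was lost without DMSO replicate 2 or without B[a]P replicate 1. Cyp2s1, a P450 outside the CYP1 family, went from 9.52 and 28.6 CPM to 84.2 and 211 CPM, a log2 rise of 3.01 ± 0.32.

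Enzymes that act on aldehydes, quinones and purines rose as well. Aldh3a1, an aldehyde dehydrogenase, was at 23.7 and 77.4 CPM with DMSO and at 454 and 1039 CPM with B[a]P, a log2 rise of 3.98 ± 0.39 (edgeR adjusted p = 4.43e-04). Nqo1, the quinone reductase, went from 48.1 and 31.0 CPM to 403 and 393 CPM, a log2 rise of 3.34 ± 0.32. In both genes every B[a]P library exceeded every DMSO library. Xdh, xanthine dehydrogenase, rose by 2.25 and Aox3, an aldehyde oxidase, by 2.54 on the log2 scale. Adh7, an alcohol dehydrogenase that also oxidises retinol, was at 28.2 and 220 CPM in pair 1 and at 3.74 and 55.7 CPM in pair 2. The level of Adh7 differed between replicates, and its log2 rise was 3.26 ± 0.41.

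Tiparp, an ADP-ribosyl transferase that dampens AHR, was at 21.4 and 165 CPM in pair 1 and at 3.14 and 24.6 CPM in pair 2. Its pair changes of 2.95 and 2.97 were nearly equal, although the level in replicate 1 was far higher with either treatment. Ahrr, the repressor of AHR, had 1 count in the 4 libraries together and was not tested. Of 17 AHR targets listed, 13 were tested, 8 rose, 13 had a positive change in both pairs (35.8% of all genes did), and the median log2 change was 2.54, against 0.01 over all genes. The 5 that did not pass were Gsta1, Gsta2 and the UGT1A genes Ugt1a6a, Ugt1a6b and Ugt1a7c, which share exons, so their changes of 0.93 to 0.99 on the log2 scale are not separate measurements. The receptor Ahr itself was at 175 and 29.5 CPM with DMSO and at 151 and 26.4 CPM with B[a]P, a log2 change of -0.19 ± 0.35 (edgeR adjusted p = 0.897). None of the 15 tested genes for the receptor and its partners passed, Arnt and HSP90 genes among them, while 1.18% of all genes did.

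The other large rises were of mixed function. Selenbp1, a selenium-binding protein, was at 0.414 and 1.89 CPM with DMSO and at 14.5 and 72.0 CPM with B[a]P, a log2 rise of 5.15 ± 0.62. Its close paralog Selenbp2, with a log2 rise of 4.87 ± 0.63, can share reads with it, so the values are uncertain as separate genes. Tnfaip2, a TNF-induced gene, was at 21.02 and 31.2 CPM with DMSO and at 130 and 244 CPM with B[a]P (log2 rise 2.80). Bmf, a pro-apoptotic member of the BCL2 family, went from 5.62 and 2.29 CPM to 35.2 and 32.7 CPM (log2 rise 3.11 ± 0.40). Of 13 tested BCL2 family genes only Bmf passed, while 1.18% of all genes did. Mpp2, a membrane scaffold protein, was at 2.93 and 15.2 CPM with DMSO and at 28.1 and 103 CPM with B[a]P (log2 rise 2.93).

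Genes of low level were among the largest rises. Ccno, a cyclin of multiciliated cells, was at 0.532 and 0.201 CPM with DMSO and at 2.02 and 7.75 CPM with B[a]P. The pairs differed, with rises of 1.90 and 5.16, and the fitted log2 rise was 3.43 ± 0.59 (edgeR adjusted p = 0.0140). Mrgprg, an orphan receptor, had 1 and 0 counts with DMSO and 18 and 114 counts with B[a]P. The ratio of the summed counts was 127, with a 95% interval from 22.3 to 5039 that covers counting error only. Neither Ccno nor Mrgprg passed without DMSO replicate 2 or without B[a]P replicate 2.

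**Figure D1:**
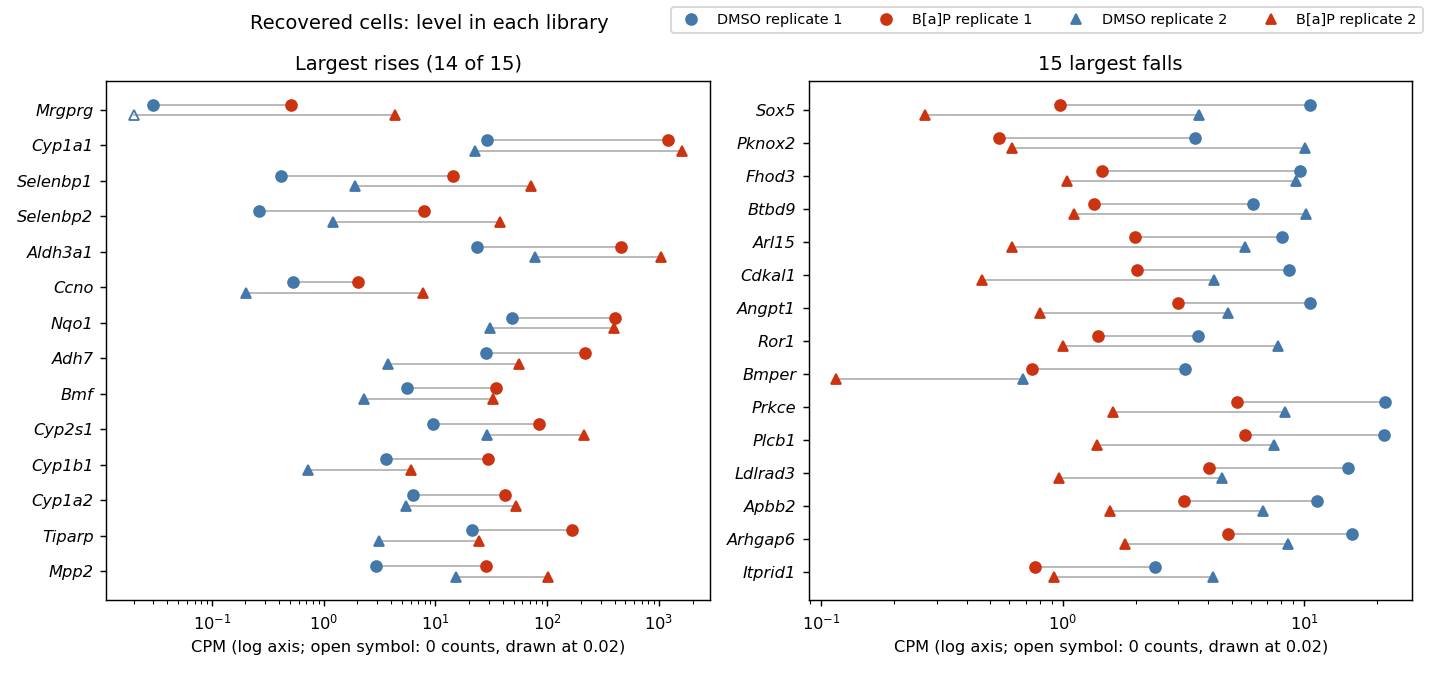
Level of 14 of the 15 largest rises (left) and of the 15 largest falls (right) in the recovered cells, in CPM on a log axis. Circles are replicate 1 and triangles replicate 2, blue is DMSO and red B[a]P, and lines join each pair: in each gene both pairs move the same way, while levels such as those of Tiparp and Cyp1b1 differ between replicates.

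**Figure D2:**
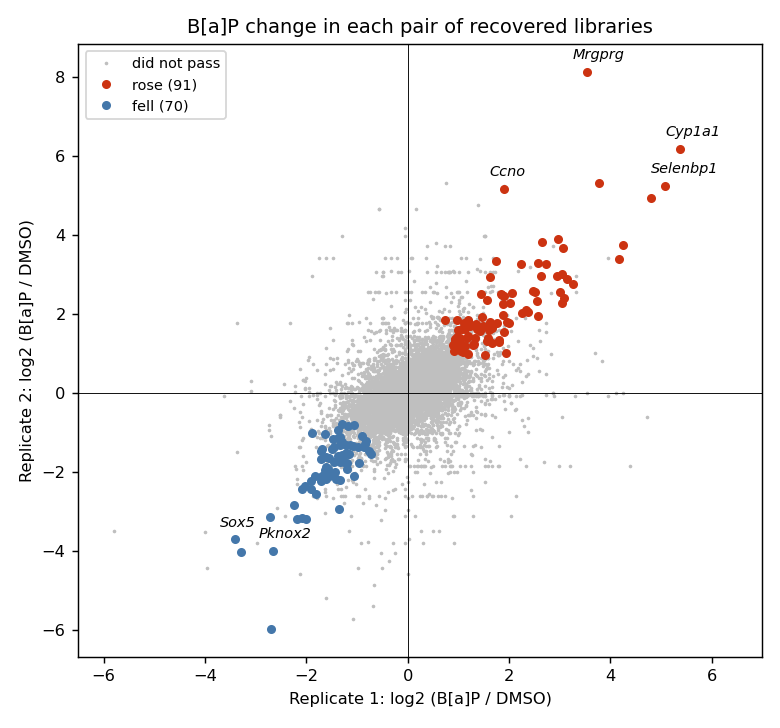
Log2 change of each tested gene with B[a]P in the replicate 1 pair (horizontal) and the replicate 2 pair (vertical) of recovered libraries. The 91 risen genes (red) lie in the upper right and the 70 fallen genes (blue) in the lower left, and Ccno and Mrgprg have the larger change in replicate 2.

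The 15 largest falls included transcription factors, actin regulators and signalling genes. Sox5, a transcription factor of 954 kb on chromosome 6, was at 10.5 and 3.66 CPM with DMSO and at 0.969 and 0.269 CPM with B[a]P, a log2 change of -3.47 ± 0.49 (edgeR adjusted p = 0.00390). Pknox2, a homeodomain transcription factor, went from 3.52 and 10.02 CPM to 0.541 and 0.614 CPM, a change of -3.34 ± 0.43. Fhod3, a formin that builds actin filaments, was at 9.61 and 9.25 CPM with DMSO and at 1.45 and 1.04 CPM with B[a]P, a change of -2.91 ± 0.32 (edgeR adjusted p = 8.90e-04). In these 3 genes every B[a]P library was below every DMSO library, and the B[a]P level was 9.05%, 9.89% and 13.3% of the fitted DMSO level. Without B[a]P replicate 2, Fhod3 still passed and the other 14 of these falls did not.

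The rest of the largest falls lay between -2.66 (Btbd9) and -1.94 (Itprid1) on the log2 scale. Among them were the signalling enzymes Prkce, a protein kinase C, and Plcb1, a phospholipase C. Prkce was at 21.6 and 8.29 CPM with DMSO and 5.24 and 1.61 CPM with B[a]P, and Plcb1 was at 21.4 and 7.48 CPM with DMSO and 5.67 and 1.38 CPM with B[a]P. Replicate 2 was below replicate 1 in both genes with each treatment, and both B[a]P libraries were below both DMSO libraries. Angpt1, a ligand of the TIE2 receptor, fell by 2.21, Ror1, a WNT receptor kinase, by 2.20, and Bmper, a BMP-binding protein, by 2.18. The others were Arl15, a small GTPase (-2.54), Cdkal1, a tRNA-modifying enzyme (-2.49), Ldlrad3 (-2.06), Apbb2, an adaptor that binds the amyloid precursor protein (-1.97), and Arhgap6, a GTPase-activating protein (-1.95). In Bmper the DMSO library of replicate 2 (0.684 CPM) was below the B[a]P library of replicate 1 (0.741 CPM).

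The fallen genes were long in the genome. Their median span from first to last annotated base was 250 kb, against 18.3 kb for the risen genes and 20.9 kb for all genes tested. Spans over 100 kb were held by 56 of the 70 fallen genes (80%), by 8 of the 91 risen genes (8.79%) and by 11.1% of all genes. Over all genes tested 0.511% fell, 0.665% rose and 48.4% had a negative change. Of the 236 genes longer than 316 kb, 23 fell (9.75%), none rose and 78.8% had a negative change. At the share of all genes, a bin of that size would hold few rises. The median of this bin was -0.70, with -0.61 in pair 1 and -0.73 in pair 2. Of the 1279 genes of 100 to 316 kb, 33 fell (2.58%) and 8 rose (0.626%, near the share of all genes), with a median of -0.20. From 31.6 to 100 kb the median was 0.07, with 8 falls (0.23%) and 24 rises (0.689%). Under 3.16 kb it was -0.08, with -0.21 in pair 1 and 0.00 in pair 2. The rank correlation of span with change over 13650 genes was -0.05 (0.04 in pair 1 and -0.14 in pair 2), since the medians did not move one way through all spans, and genes of a library are not independent. Replicates of the recovered cells with DMSO differed with span too. Replicate 2 minus replicate 1 had a median log2 of 0.53 below 3.16 kb and -0.75 above 316 kb. In the same bin above 316 kb the median B[a]P change was -0.67 in control-grown and -0.75 in Cr(VI)-grown cells.

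**Figure D3:**
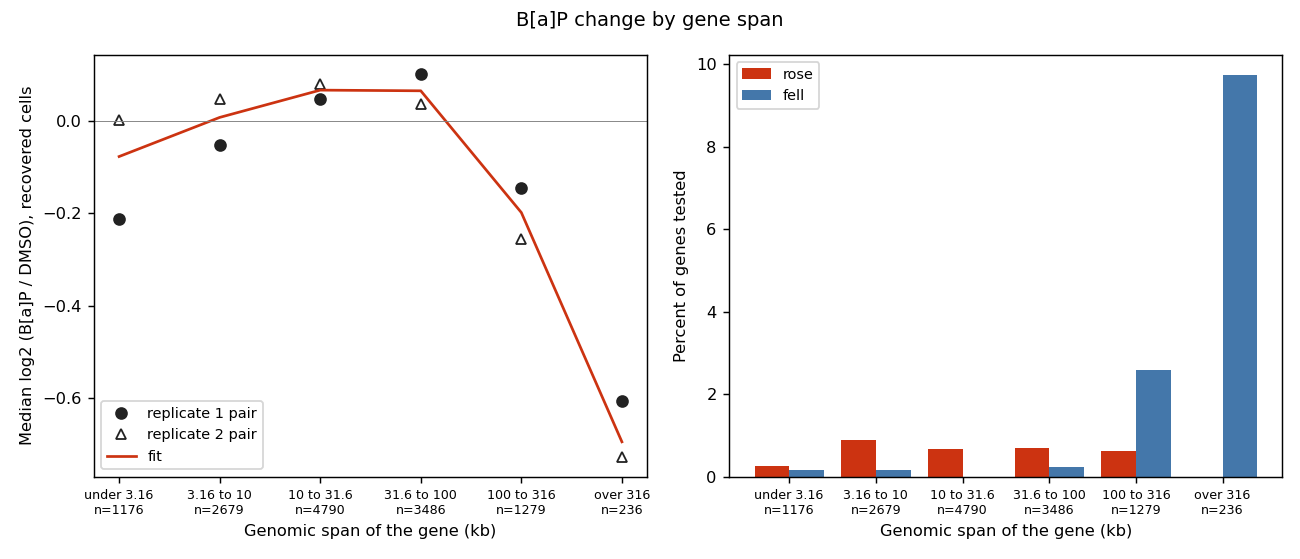
Left, the median log2 change with B[a]P in the recovered cells by genomic span of the gene in kb, for each pair (points) and for the fit (line). Right, bars give the percent of tested genes in each bin that rose or fell: the falls gather in the bins above 100 kb, where the median is below 0 in both pairs.

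NRF2 is a transcription factor of antioxidant genes that is released when its partner KEAP1 senses electrophiles. Of 29 antioxidant genes tested, 2 rose, 27 had a positive change and 23 a positive change in both pairs, with a median of 0.64. Over all genes tested 0.665% rose, 51.6% had a positive change and 35.8% a positive change in both pairs, with a median of 0.01. Srxn1, which repairs oxidised peroxiredoxins, was at 45.2 and 48.1 CPM with DMSO and at 103 and 171 CPM with B[a]P (1.49 ± 0.26; edgeR adjusted p = 0.0144). Gclc, for glutathione synthesis, was at 100 and 28.9 CPM with DMSO and at 256 and 96.5 CPM with B[a]P (1.501 ± 0.311; edgeR adjusted p = 0.0376). The Gclc replicates overlapped, since DMSO replicate 1 was above B[a]P replicate 2. Hmox1, heme oxygenase, was at 66.5 and 26.0 CPM with DMSO and at 171 and 231 CPM with B[a]P. Its pair changes of 1.36 and 3.15 were unequal and it did not pass (2.00 ± 0.48; edgeR adjusted p = 0.0768), though it did by DESeq2. Srxn1 no longer passed without DMSO replicate 2 or without either B[a]P library. Of 21 genes of conjugation and export none passed, and their median was 0.52. Ugt1a1, Ugt1a2, Ugt1a5, Ugt1a9 and Ugt1a10 are among them, with near-equal changes of 0.939 to 0.946. These UGT1A genes share exons, so they are not separate measurements, and they weigh on the median.

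Targets of p53 were above 0 in 25 of 31 genes, 24 of them in both pairs, with a median of 0.68, and 2 rose, beside the same shares over all genes (51.6% above 0, 35.8% in both pairs, 0.665% risen). Btg2, an antiproliferative gene, was at 15.7 and 7.12 CPM with DMSO and at 56.9 and 39.6 CPM with B[a]P (2.10 ± 0.29; edgeR adjusted p = 0.00338), and every B[a]P library was higher. Tnfrsf10b, a death receptor, passed at 1.04 ± 0.22 (edgeR adjusted p = 0.0420). Cdkn1a, the p21 cell cycle inhibitor, was at 291 and 268 CPM with DMSO and at 673 and 1267 CPM with B[a]P, without overlap, yet it did not pass (1.67 ± 0.38; edgeR adjusted p = 0.0623), though it did by DESeq2. Mdm2, which degrades p53, was at 234 and 438 CPM in pair 1 and at 20.1 and 55.8 CPM in pair 2 (1.12; edgeR adjusted p = 0.175). Gdf15, a stress cytokine, had a change of -0.01 in pair 1 (205 and 203 CPM) and 1.797 in pair 2 (103 and 359 CPM), so the pairs gave different values (0.68; edgeR adjusted p = 0.603).

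Genes of mitosis and DNA replication were below 0 as a group, and none of them passed, while 1.18% of all genes tested did. All 26 G2 and mitosis genes were below 0 in both pairs, with a median of -0.48, while 33% of all genes were below 0 in both pairs. Plk1, a mitotic kinase, was at 66.9 and 267 CPM with DMSO and at 37.95 and 131 CPM with B[a]P (-0.94; edgeR adjusted p = 0.254). Of 27 genes of DNA replication, 25 were below 0 in both pairs, and the median was -0.50. Ccne1, cyclin E1, was at 31.2 and 56.3 CPM with DMSO and at 13.5 and 31.0 CPM with B[a]P (-1.01; edgeR adjusted p = 0.119). In DMSO alone replicate 2 exceeded replicate 1 by a median of 0.34 for G2 and mitosis genes and of 0.78 for replication genes. The list of G1 cyclins and kinases had 12 tested genes. Of these only Ccno passed, the cyclin of multiciliated cells given above, and it rose.

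Of the DNA repair genes listed, Ung alone passed, while 1.18% of all genes tested did. Ung, which removes uracil from DNA, was at 12.8 and 14.6 CPM with DMSO and at 7.04 and 5.68 CPM with B[a]P, and it fell by 1.11 on the log2 scale (-1.11 ± 0.23; edgeR adjusted p = 0.0406), the 1 of 29 excision repair genes that passed. Ercc5, an endonuclease of nucleotide excision repair, was at 39.6 and 12.4 CPM with DMSO and at 83.0 and 29.6 CPM with B[a]P but did not pass (1.15; edgeR adjusted p = 0.0547). Of 31 genes of break and crosslink repair, 27 were below 0 with a median of -0.34, and of 8 mismatch repair genes all 8 were below 0 with a median of -0.52, while 48.4% of all genes were below 0. None of either list passed, nor did any of 10 translesion synthesis genes (median -0.15). Repair genes outside these lists are not counted here, among them Fancl, which fell and is given at the end.

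The calls in the other lists stand beside 1.18% of all genes tested that passed and 0.665% that rose. At those shares most lists of this size would hold no call. Of 21 immediate early genes Fos (1.41 ± 0.30; edgeR adjusted p = 0.0418) and Jun (1.10 ± 0.23; edgeR adjusted p = 0.0406), the partners of the AP-1 factor, passed. Ddx58, the RNA sensor RIG-I, was the 1 of 16 interferon and RNA sensor genes that rose: it was at 21.6 and 28.7 CPM with DMSO and at 65.5 and 87.2 CPM with B[a]P, and its pair changes were 1.60 and 1.61. Of 15 NF-kB and cytokine genes Tnfaip2 rose. None of 19 ATF4 targets passed, with medians of -0.28 in pair 1 and 0.72 in pair 2. None of 18 ER chaperones (median 0.22), 12 heat shock genes (-0.08), 17 hypoxia genes (0.12), 22 sterol genes (-0.02), 11 fat oxidation genes (0.17) or 14 clock genes (0.21) passed. Metal response genes were at a median of 0.09 with none of 9 passing: Mt1, a metallothionein, was at 75.4 and 190.6 CPM with DMSO and 74.5 and 279.5 CPM with B[a]P, and Mt2 had a change of -0.03 ± 0.31. Afp, the fetal albumin, had a change of -0.39 ± 0.30.

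**Figure D4:**
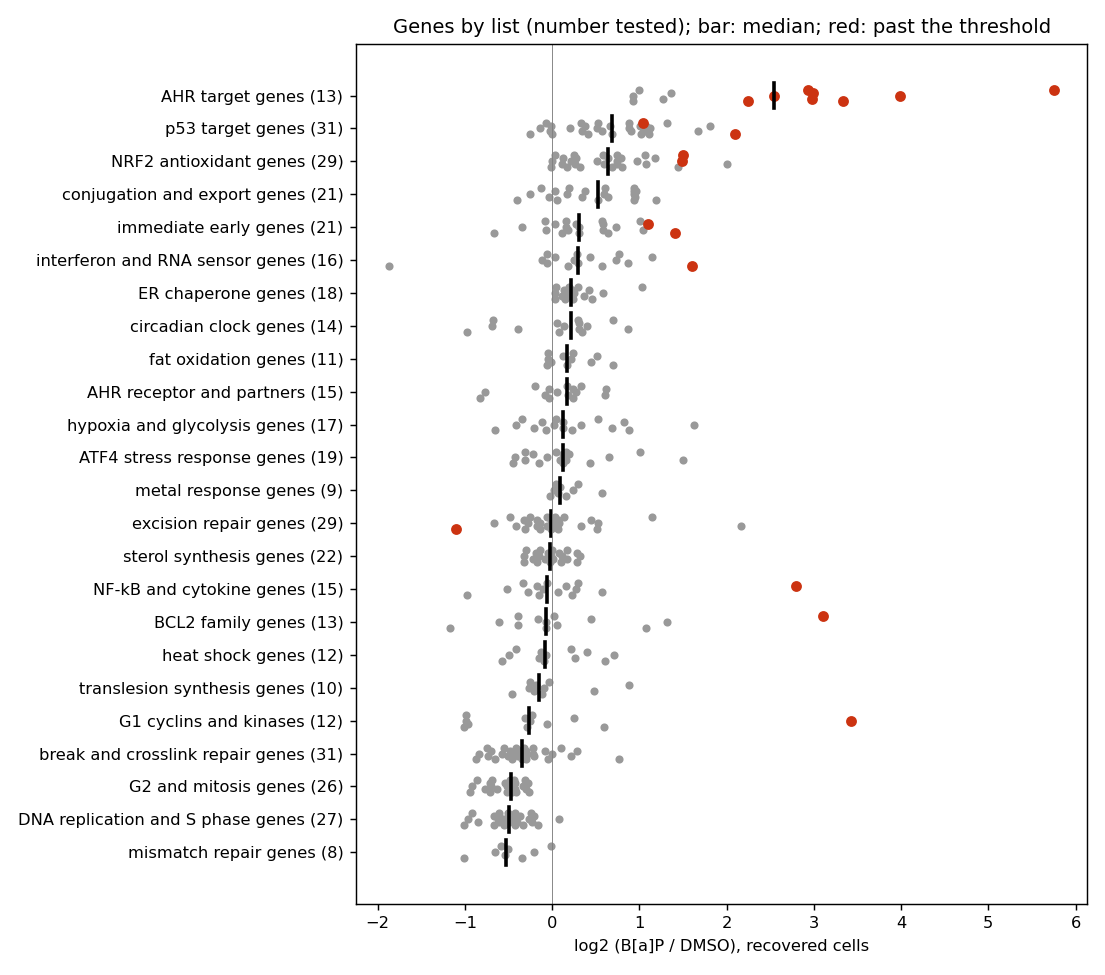
Log2 change with B[a]P in the recovered cells for each tested gene of the gene lists, with the number tested in parentheses. Points are genes, black bars the list medians and red points genes past the threshold: AHR targets have a median of 2.54, and all G2 and mitosis genes lie below 0.

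The study asked whether a Cr(VI) history changes the response to B[a]P. No gene's response in the recovered cells differed from that of control-grown cells of the same passage past the threshold (0 of 13692, 0%, edgeR adjusted p under 0.05 on the difference), and DESeq2 gave 0 too. At an unadjusted p under 0.05 there were 57. Against cells still in Cr(VI) the count was 0 as well (0%), with 477 genes at an unadjusted p under 0.05 and 0 by DESeq2. The 95% interval of a difference reached a median of 0.877 and 0.878 log2 to each side in these comparisons before any adjustment for the number of genes. Both unadjusted counts are a smaller share than the 0.05 that calibrated p-values give when no gene differs. The 0 calls therefore do not show that the responses were equal. Leaving out the libraries that stood apart leaves 1 library with B[a]P in control-grown cells and 1 with DMSO in Cr(VI)-grown cells. A fit without them therefore cannot decide whether the responses differ.

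Cyp1a1 rose by 5.75 in the recovered, 5.49 in the control-grown and 5.54 in the Cr(VI)-grown cells. The difference of recovered from control-grown cells was 0.27, with a 95% interval from -0.88 to 1.41, and from Cr(VI)-grown cells 0.21, from -0.94 to 1.36. Nqo1 gave 3.34, 3.34 and 3.84 in the same order, with intervals of the difference from -0.91 to 0.90 and from -1.40 to 0.40. Pknox2 changed by -3.34, -3.57 and -5.21, and its difference from Cr(VI)-grown cells was 1.87, from 0.48 to 3.26, unadjusted p = 0.0125 and edgeR adjusted p = 0.977. Cyp2s1 rose by 3.01, 2.98 and 1.98, with a difference from Cr(VI)-grown cells of 1.04, from 0.11 to 1.97, which had an edgeR adjusted p of 0.977. Its pairs rose by 1.20 and 2.71 in Cr(VI)-grown cells and by 3.14 and 2.88 in recovered cells. The DMSO library of the Cr(VI)-grown replicate 1 pair is among those that stood apart. These intervals are for single genes and are not adjusted for the number of genes. Genes with a mean of at least 1 CPM over the libraries compared were ranked by the p-value of the difference. The lowest from control-grown cells were Pycr1 (-1.14), Nup210l (1.86) and Micalcl (1.33). From Cr(VI)-grown cells they were Ephb6 (1.44), H3c13 (1.72) and Zfp385a (1.01). None of these genes passed. Nup210l was low, at 0.241 CPM with DMSO and 0.460 CPM with B[a]P in replicate 2 of the recovered cells.

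The 91 risen genes had a positive change in all 91 cases in control-grown and in Cr(VI)-grown cells of passage 25, which have DMSO libraries of their own. Of them 70 also passed in control-grown cells (76.9%, against 1.1% of all genes that rose there) and 75 in Cr(VI)-grown cells (82.4%, against 1.58%; 4.1% of all genes passed there in either direction and 1.86% in control-grown cells). The median change was 1.69 in recovered, 1.77 in control-grown and 1.59 in Cr(VI)-grown cells. The 70 fallen genes were below 0 in all 70 cases in both other histories, and 53 passed in control-grown cells (75.7%, against 0.767% of all genes that fell there) and 60 in Cr(VI)-grown cells (85.7%, against 2.51%). Leaving out the libraries that stood apart leaves 1 library in a group of each other history, and the direction was again shared by all these genes. Those libraries are not part of the replicate 2 pairs. In these pairs the risen genes had medians of 1.77 in control-grown and 1.81 in Cr(VI)-grown cells. The fallen genes had medians of -1.59 and -1.67 there. The genes were called in the recovered cells from a fit that shares its spread with the other histories.

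**Figure D5:**
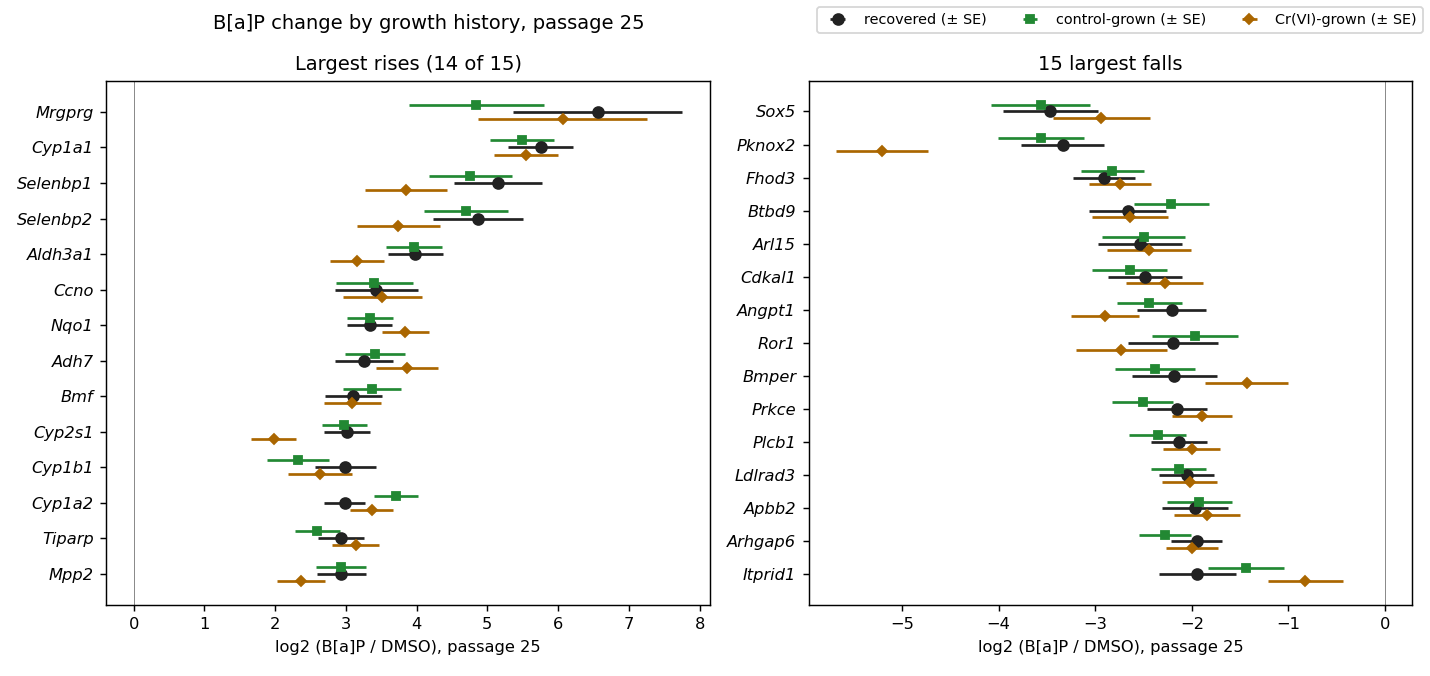
Log2 change with B[a]P at passage 25, with SE, for 14 of the 15 largest rises (left) and the 15 largest falls (right) of the recovered cells (black), beside control-grown (green) and Cr(VI)-grown cells (brown). All 3 histories have the same sign in each gene, and Pknox2 is the gene with the widest gap between recovered and Cr(VI)-grown cells.

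Genes chosen in other libraries were followed as well. In control-grown cells of passage 20, fitted apart from passage 25, B[a]P raised 569 genes (4.07%) and lowered 679 genes (4.86%), together 8.93% of the genes tested there. Of the risen genes 525 were tested in the recovered cells, where 510 were above 0 (97.1%, against 51.6% of all genes). Their median was 0.71, and 57 of them rose past the threshold, while 0.665% of all genes did. Of the fallen genes 672 were tested and 639 were below 0 (95.1%, against 48.4% of all genes). Their median was -0.71, and 61 of them fell past the threshold, while 0.511% of all genes did. At passage 20, where they were chosen, the same genes had medians of 1.31 and -1.46. That choice favours large changes there, so these medians cannot be compared with those in the recovered cells. Cyp1a1 rose by 5.02 at passage 20 in control-grown and 4.65 in Cr(VI)-grown cells, and Cyp1a2 had changes of 1.56 and 1.61 there against 2.98 in the recovered cells. Sox5 changed by -5.30 and -2.42 at passage 20 and by -3.47 in the recovered cells. These values come from separate fits, and their differences were not tested.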

How the data were processed

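RNA of 20 Hepa-1 samples was sequenced, and the authors deposited a single table of raw counts, in which 23373 Entrez IDs are rows and the libraries are columns. Per the submitters' processing notes, bcl2fastq, CASAVA 1.8, TopHat, DESeq and mm10 were used, with no roles stated. The counting program, annotation and strand setting were not given in the sources used here, so reads of overlapping, antisense or near-identical genes cannot be told apart. Symbols, spans and coordinates came from RefSeq GRCm38.p6 (mm10), which matched 23275 IDs.

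Genes were tested with edgeR 4.0.16 (R 4.3.3) on the 12 libraries of passage 25: filterByExpr, TMM, quasi-likelihood fit with 6 group means and the replicate number as a block (5 residual degrees of freedom), two-sided, Benjamini-Hochberg threshold 0.05. SE is the log2 change over the square root of F. Pair changes used log CPM with a prior count of 0.5. Depth at passage 25 was 21795837 to 37930720 counts per library. Replicate numbers deviated together: differences of replicate 2 from replicate 1 correlated at 0.789 to 0.902 over the 15 pairs of groups. Passage 20 was fitted apart without a block. DESeq2 1.42.0, other scalings, filters and designs, and leaving out each library were tried. The script was tested on simulated data. Named genes were the 15 largest rises and the 15 largest falls with both pairs agreeing and a mean of at least 1 CPM. They also included the 3 lowest p-values of each difference, list members and a fixed set of AHR, stress and liver genes. A few of these genes are not reported here. The comparison, the lists and their members were chosen with earlier results of these data known. The passage was taken from the passage label, although the titles carry 27.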

Additional observations from a re-analysis of the deposited data

How the results depend on the processing

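The 161 calls rest on the replicate block: without the block 0 genes passed, and with all 20 libraries and no block 8, while all 161 genes kept their sign in both. DESeq2 with the block called 476 genes, and a fit of only the 4 recovered libraries, with 1 residual degree of freedom, 2273. Leaving out each recovered library gave 37 to 94 calls, the fewest without B[a]P replicate 2 and the most without DMSO replicate 1; the lone library left is then assumed to vary like the other groups. Without the libraries that stood apart, an alternative chosen after seeing the data, 236 passed. The other counts were within 1.5 times of 161, and every gene of the 161 that was tested kept its sign in every setting. The genes were chosen for their change in these libraries, and the settings reuse most of them. The kept signs therefore follow largely from the choice and are not separate support. Both differences of responses gave 0 calls in every setting. Changes of sign were found only for genes that did not pass. Mt2 was at 0.11 without the block (12 or 20 libraries). Leaving out single recovered libraries, Mt2 ranged from -0.37 to 0.34, Ahr from -0.73 to 0.37, Micalcl from -0.383 to 0.061, Gdf15 from -0.0704 to 1.84, Alb from -0.98 to 0.38, Mt1 from -0.11 to 0.63 and Ephb6 from -0.0794 to 0.426. The cause was not tested. Of 32 named genes past the threshold, 15 were still called without B[a]P replicate 2 and 22 without DMSO replicate 2.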

Other observations

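The genes in this paragraph lie outside the naming rule and were chosen after their values were seen. Polr2a, the largest subunit of RNA polymerase II, was at 113 and 144 CPM with DMSO and at 217 and 373 CPM with B[a]P in the recovered cells, a log2 rise of 1.17 ± 0.25 (edgeR adjusted p = 0.0420). Lpin1 and Lpin2, phosphatidate phosphatases of lipid synthesis, rose by 1.60 ± 0.29 and 1.44 ± 0.24. Ppard, a fatty acid-sensing nuclear receptor, rose by 1.07 ± 0.21. Sod3, the extracellular superoxide dismutase, was at 11.4 and 29.0 CPM with DMSO and at 42.5 and 159 CPM with B[a]P, a log2 rise of 2.23 ± 0.30 (edgeR adjusted p = 0.00338). Entpd2, an ectonucleotidase, was at 9.55 and 19.7 CPM with DMSO and at 81.4 and 105.1 CPM with B[a]P, a log2 rise of 2.78 ± 0.31.

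Regulators of other pathways were among the falls, again named after their values were seen. Fkbp5, a chaperone that binds the glucocorticoid receptor, was at 22.8 and 14.7 CPM with DMSO and at 7.47 and 4.80 CPM with B[a]P, a change of -1.61 ± 0.22 (edgeR adjusted p = 0.00338). Vegfc, a lymphatic growth factor, changed by -1.60 ± 0.24. Esr1, the estrogen receptor alpha, was at 2.99 and 2.29 CPM with DMSO and at 1.11 and 0.499 CPM with B[a]P (-1.75 ± 0.35). Fancl, the ubiquitin ligase of the Fanconi anemia pathway, changed by -1.33 ± 0.26 (edgeR adjusted p = 0.0326).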
